A study of Arabidopsis thaliana with 12 samples.

Results

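The genes described here are the 39 Arabidopsis genes named as cysteine-rich receptor-like kinases (CRK) by their AGI identifiers, of 33610 genes in the count table. All 39 were present in the table. Holoxenic (HO) Col-0 plants had received a live slurry of MSU soil (Michigan, agricultural) or of Malaka soil (Iowa, grassland), and axenic (AX) Col-0 plants the corresponding slurry after autoclaving. The sample titles name the second soil Malaka and the sample descriptions Laurel for the same libraries, and Malaka is used here. Plants of all 4 groups (HO-MSU, HO-Malaka, AX-MSU and AX-Malaka) were wild type, were grown in FlowPots, a peat-based gnotobiotic system in which the substrate is sterile before inoculation, and were 21 days old according to the labels. Each group comprised 3 RNA-seq libraries. Each library was a pool of 8 whole rosettes from 4 FlowPots that shared a microbox, so p-values measure the spread between pools.

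CRKs are single-pass membrane proteins with an extracellular region built of DUF26 domains, each with a conserved C-X8-C-X2-C arrangement of cysteines, and an intracellular serine/threonine kinase domain. Many are transcribed in response to pathogens, salicylic acid or reactive oxygen species, and several act together with pattern recognition receptors such as the flagellin receptor FLS2 during pattern-triggered immunity (PTI). The family is large in Arabidopsis, and much of it lies in tandem arrays of near neighbours, so that reads of similar members can be hard to assign.

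Of the members, 35 lie on chromosome 4, and the other 4 are CRK2 and CRK3 on chromosome 1, CRK4 on chromosome 3 and CRK42 on chromosome 5. With members less than 20000 bases apart joined into a cluster, the largest cluster held 19 members from CRK5 to CRK24 in 74.2 kb (chr4:12117491-12191704, TAIR10). Clusters of 5 members (CRK30 to CRK34, 26.3 kb), 4 members (CRK36 to CRK39, 30.6 kb) and 2 members (CRK2 with CRK3, and CRK28 with CRK29) followed, and 7 members stood alone. The family label was checked against the proteins that the RefSeq annotation of TAIR10 gives. At least 2 C-X8-C-X2-C motifs were found in 37 of the 39 members, and in 0.485% of all 27444 annotated proteins. CRK27 and CRK24 had 1 motif each. The gene AT4G23250, described here as CRK17, carries the symbol EMB1290 in RefSeq, and its gene model holds 4 motifs and reaches into CRK16.

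The coding bases of the first motif are given for the 7 members on which the results turn, because the similarity of these genes decides how well their reads can be told apart. They are printed 5′ to 3′ in the direction of transcription, from the TAIR10 sequence in RefSeq, with the 3 cysteine codons in capitals.
CRK5 (chr4:12119841-12119879, minus strand): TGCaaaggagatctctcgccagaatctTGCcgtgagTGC
CRK6 (chr4:12121652-12121690, plus strand): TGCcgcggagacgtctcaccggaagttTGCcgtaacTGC
CRK8 (chr4:12131708-12131746, plus strand): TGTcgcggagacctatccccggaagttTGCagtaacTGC
CRK15 (chr4:12159995-12160033, minus strand): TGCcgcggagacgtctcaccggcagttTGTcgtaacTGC
CRK20 (chr4:12174992-12175030, plus strand): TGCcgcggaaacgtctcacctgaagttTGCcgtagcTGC
CRK14 (chr4:12156618-12156656, minus strand): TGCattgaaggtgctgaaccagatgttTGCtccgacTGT
CRK18 (chr4:12169774-12169812, minus strand): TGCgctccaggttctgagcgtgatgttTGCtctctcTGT
CRK6, CRK15, CRK20 and CRK8 were similar over these 39 bases. CRK6 differed from CRK15 at 2 positions, from CRK20 at 3 and from CRK8 at 5. CRK15 differed from CRK20 at 5 positions, and CRK8 differed from CRK15 at 7 and from CRK20 at 8. CRK5 differed from CRK6 at 11 positions, and CRK18 from CRK15 at 23, which was the most divergent pair of these 7 genes. The median over all 741 pairs of members was 20 differing positions.

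Because the reads were 50 bases long, every stretch of 50 exonic bases of a member was looked up in the whole genome. CRK6 shared 22.0% of its exonic 50-base windows with another place, mostly with CRK8, and CRK8 shared 16.5%, mostly with CRK6. CRK13 and CRK22 shared 15.4% and 16.2% with each other, CRK20 shared 6.72% with CRK19 and CRK23, CRK39 and CRK40 shared 5.38% and 4.43%, mostly with each other, and CRK18 and CRK17 shared 4.70% and 3.78%, mostly with each other. The other members shared at most 2.72%. For CRK5, CRK14 and CRK15 no exonic window was found elsewhere. How reads with several possible origins were counted is not given in the sources used here, so the counts of the members that share windows are uncertain to that extent. Gene models also overlap on the same strand for CRK28 with CRK29 (470 exonic bases) and CRK16 with CRK17 (776 exonic bases). CRK10 overlaps CRK11 on the opposite strand by 32 exonic bases, CRK19 overlaps AT4G23271 by 102, CRK42 overlaps AT5G40382 by 130 and CRK25 overlaps AT4G05190 by 391. The library kit keeps strand, but the strand setting used for counting is not given in the sources used here.

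A short promoter motif was also counted in the 250 bases before each gene's annotated start, because WRKY transcription factors, which act in plant defence, bind the W-box and its core TTGAC. The core was searched on both strands (TTGAC or GTCAA, which cannot overlap each other). It occurred in 29 of the 39 members (74.4%) and in 45% of 26709 promoters of the same length. At least 2 cores were found in 41% of members and 14.1% of all promoters, and at least 3 in 17.9% and 3.38%. The windows can hold parts of other genes. That of CRK28 lies within CRK29, that of CRK16 lies within CRK17, and that of CRK15 reaches into CRK16. The promoters of CRK5, CRK6, CRK20 and CRK18 are shown as members that rose with the live microbiota, and that of CRK11 because its 6 cores were the highest number in the family. They are taken from RefSeq (TAIR10), are written 5′ to 3′ toward the gene, and have the core in capitals.
CRK5 (chr4:12120221-12120470, minus strand): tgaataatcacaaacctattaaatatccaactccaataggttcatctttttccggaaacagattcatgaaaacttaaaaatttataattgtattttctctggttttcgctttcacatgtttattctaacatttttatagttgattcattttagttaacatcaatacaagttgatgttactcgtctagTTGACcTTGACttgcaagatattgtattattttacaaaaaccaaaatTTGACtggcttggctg
CRK6 (chr4:12121119-12121368, plus strand): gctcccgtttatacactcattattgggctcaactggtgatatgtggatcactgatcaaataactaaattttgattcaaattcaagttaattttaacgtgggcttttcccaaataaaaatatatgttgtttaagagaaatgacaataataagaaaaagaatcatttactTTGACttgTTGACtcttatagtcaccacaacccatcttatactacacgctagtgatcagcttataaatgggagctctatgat
CRK20 (chr4:12174483-12174732, plus strand): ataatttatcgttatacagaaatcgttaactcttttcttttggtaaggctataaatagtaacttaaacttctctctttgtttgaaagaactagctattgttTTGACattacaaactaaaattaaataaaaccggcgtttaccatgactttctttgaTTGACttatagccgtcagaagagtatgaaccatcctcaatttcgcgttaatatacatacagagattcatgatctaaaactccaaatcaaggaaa
CRK18 (chr4:12170081-12170330, minus strand): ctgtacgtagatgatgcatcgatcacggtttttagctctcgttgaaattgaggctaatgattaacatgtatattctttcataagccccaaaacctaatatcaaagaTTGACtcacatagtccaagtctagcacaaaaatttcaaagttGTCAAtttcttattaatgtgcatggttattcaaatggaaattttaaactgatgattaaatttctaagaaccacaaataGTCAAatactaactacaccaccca
CRK11 (chr4:12143859-12144108, minus strand): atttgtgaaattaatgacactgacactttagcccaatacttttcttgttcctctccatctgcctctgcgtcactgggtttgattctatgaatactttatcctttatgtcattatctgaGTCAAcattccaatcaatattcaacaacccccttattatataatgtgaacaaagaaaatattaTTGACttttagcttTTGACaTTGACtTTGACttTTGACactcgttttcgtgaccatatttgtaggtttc
In CRK5 a pair of cores lies a base apart, in CRK6 a pair lies 3 bases apart, and in CRK11 a run of 5 cores fills a short stretch near the gene. A match describes these letters only and is not evidence that a factor binds there.

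The libraries held between 10211008 and 22710086 counts, of which ribosomal RNA and organelle genes took between 65.3% and 74.8%. Counts are given as CPM, which are counts scaled to a fixed library total, after TMM scaling to a common composition. At 3 counts, the floor used for a gene without counts, a library's CPM was between 0.134 and 0.303, so members near these values were close to the limit of detection. The tissue label was checked with 4 leaf markers (RBCS1A, CAB1, CAB3 and GAPA), which summed to between 10180 and 11690 CPM in HO and between 10570 and 11740 CPM in AX libraries. The 4 root markers (EXPA7, COBL9, PIN2 and CASP1) summed to at most 0.565 CPM in any library, and the senescence marker SAG12 had no count. The 3 flower markers (AP3, AG and PI) summed to between 0.188 and 1.1 CPM in HO and between 0 and 0.377 CPM in AX libraries, with 36 and 17 counts of PI, 17 and 0 of AG and 1 and 0 of AP3, and their part in the results was not tested. The 3 guard cell markers (KAT1, FAMA and MYB60) summed to between 18.5 and 24.8 CPM in HO and between 21.6 and 26.5 CPM in AX libraries. In whole rosettes, fewer cells of a type and less RNA per cell cannot be told apart.

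A total of 27 members passed the filter on low counts and were tested among 17588 genes, and 12 did not pass. Across both soils, 7 members were differentially expressed genes (DEGs, |log2FC| of at least 1 and FDR under 0.05) and higher in HO plants, which were CRK15, CRK5, CRK6, CRK14, CRK8, CRK20 and CRK18. All of them lie in the cluster from CRK5 to CRK24. Another 8 members had an FDR under 0.05 with a smaller rise. No tested member was lower by the FDR, and 26 of the 27 had a positive log2FC, compared with 50.9% of all tested genes. The 7 DEGs were 25.9% of the tested members, compared with 1.56% of all tested genes that were DEGs higher in HO. The 15 members higher by FDR alone were 55.6%, compared with 5.01% of all genes. For genes lower in HO, 0.432% of all genes were DEGs and 5.16% passed the FDR alone, and no member did either with edgeR. None was lower at an unadjusted p under 0.05 either, with edgeR or with DESeq2.

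The filter has to be read beside these counts. It asked for a cutoff near 10 counts in any 3 libraries, and 7 of the 27 members (CRK4, CRK5, CRK6, CRK8, CRK15, CRK16 and CRK20) reached it only with the help of HO libraries. CRK6, CRK8, CRK15 and CRK20 had no AX library at the cutoff, CRK5 and CRK16 had 1 and CRK4 had 2, so members of low AX level entered the test through high HO libraries. Of the 20 members that reached it in 3 AX libraries, 2 (CRK14 and CRK18) were DEGs higher in HO, or 10%, compared with 0.668% of the genes that passed in the same way. The median log2FC was 0.57 over the tested members and 0.005 over all tested genes, and 0.37 and -0.003 over those that reached the cutoff in 3 AX libraries.

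CRK5 (AT4G23130, chr4:12117491-12120220, minus strand) encodes a kinase whose overexpression is known to give cell death and resistance to bacteria. It was counted at 0.559, 0.252 and 0.101 CPM in the AX-Malaka libraries and at 2.73, 2.16 and 4.66 CPM in the HO-Malaka libraries. In the AX-MSU libraries it stood at 0.775, 0.138 and 0.282 CPM, and in the HO-MSU libraries at 3.48, 2.81 and 4.37 CPM. Every HO library was above every AX library. The level rose 9.03-fold in HO plants (log2FC 3.18 ± 0.32 SE, FDR 6.32e-08, edgeR), the smallest FDR in the family, and was 10.0-fold and 8.34-fold higher within Malaka and MSU soil. These folds became 16.03 without AX-Malaka replicate 1 and 16.2 without AX-MSU replicate 1.

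CRK6 (AT4G23140, chr4:12121369-12124564, plus strand) is the next gene and is known to associate with FLS2 and to protect against extracellular oxidative stress. Its AX-Malaka libraries stood at 0.559, 0.0629 and 0.202 CPM and its HO-Malaka libraries at 1.51, 1.32 and 2.12 CPM. The AX-MSU libraries had 0.298, 0.414 and 0.211 CPM and the HO-MSU libraries 3.06, 1.38 and 3.69 CPM. HO and AX libraries did not overlap, and the rise was 7.36-fold (log2FC 2.88 ± 0.37, FDR 3.02e-06). Within Malaka soil the log2FC was 2.61 (FDR 0.0041). It was 2.03 without AX-Malaka replicate 2, which held 1 count, with an FDR of 0.0574, and 3.73 without AX-Malaka replicate 1.

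CRK15 (AT4G23230, chr4:12157827-12160279, minus strand) had the largest log2FC and the lowest AX level of the tested members. A total of 5 counts fell on it in the 6 AX libraries and 87 in the 6 HO libraries. In AX-Malaka plants 2 libraries had none and the third 0.101 CPM, and the HO-Malaka libraries were at 0.349, 0.188 and 1.34 CPM. The AX-MSU libraries were at 0.0596, 0.0691 and 0.141 CPM and the HO-MSU libraries at 1.16, 0.714 and 1.89 CPM. Every HO library was again higher, although HO-Malaka replicate 2 rested on 2 counts. The joint log2FC was 3.83 ± 0.61 (FDR 7.04e-05). With 1 count in AX-Malaka plants, the ratio of the counts scaled to depth was 24.6 in that soil with a 95% exact binomial interval from 4.06 to 1008, which covers counting error only.

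CRK14 (AT4G23220, chr4:12154091-12156881, minus strand) lies 945 bases from CRK15. The AX-Malaka libraries had 1.20, 0.440 and 0.707 CPM, and the HO-Malaka libraries 3.08, 2.16 and 3.39 CPM. The AX-MSU libraries had 0.835, 0.483 and 0.846 CPM, and the HO-MSU libraries 4.58, 1.96 and 3.92 CPM. HO and AX did not overlap, with a 4.24-fold higher level in HO (log2FC 2.08 ± 0.27, FDR 3.45e-06). CRK14 was a DEG within Malaka soil (FDR 0.0026) and within MSU soil (FDR 0.000179).

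CRK18 (AT4G23260, chr4:12167416-12170080, minus strand) was the most abundant of the 7 DEGs. It was at 6.31, 5.09 and 4.45 CPM in AX-Malaka, at 10.5, 11.0 and 9.74 CPM in HO-Malaka, at 5.01, 3.45 and 4.93 CPM in AX-MSU and at 12.0, 8.61 and 12.8 CPM in HO-MSU libraries. The HO libraries were all higher, and the rise was 2.20-fold (log2FC 1.14 ± 0.13, FDR 4.09e-07). Its log2FC was 1.30 within MSU soil and 0.97, just short of the fold threshold, within Malaka soil.

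CRK8 and CRK20 were called with the 2 soils together and in neither soil separately. CRK8 (AT4G23160, chr4:12129485-12134209, plus strand) had 0.240, 0.126 and 0.101 CPM in AX-Malaka, 0.814, 0.0940 and 1.41 CPM in HO-Malaka, 0.119, 0.622 and 0.211 CPM in AX-MSU and 0.794, 1.03 and 1.81 CPM in HO-MSU libraries. HO-Malaka replicate 2, with 1 count, lay below all AX libraries, and the other 5 HO libraries lay above them. The log2FC was 2.06 ± 0.48 (FDR 0.0048), with an FDR of 0.0925 within Malaka and 0.0646 within MSU soil. Without HO-Malaka replicate 2 CRK8 was a DEG within Malaka (FDR 0.0198) and within MSU soil (FDR 0.0343), and without AX-MSU replicate 2 within MSU soil (log2FC 2.81, FDR 0.0445). Since CRK8 shares many 50-base windows with CRK6, part of either signal could belong to the other gene.

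CRK20 (AT4G23280, chr4:12174733-12177576, plus strand) gives cell death when it is expressed from an inducible promoter. It had 0.240, 0.566 and 0.101 CPM in AX-Malaka and 1.16, 1.504 and 0.988 CPM in HO-Malaka libraries. It had 0.238, 0.138 and 0.282 CPM in AX-MSU and 0.672, 0.535 and 1.28 CPM in HO-MSU libraries. The libraries overlapped at a single point, where HO-MSU replicate 2 was below AX-Malaka replicate 2, and within each soil they did not overlap. The log2FC was 1.84 ± 0.40 (FDR 0.0024), and the FDR was 0.0558 within Malaka and 0.0639 within MSU soil. Without AX-Malaka replicate 2 CRK20 was a DEG within Malaka soil (log2FC 2.70, FDR 0.0422).

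**Figure D1:**
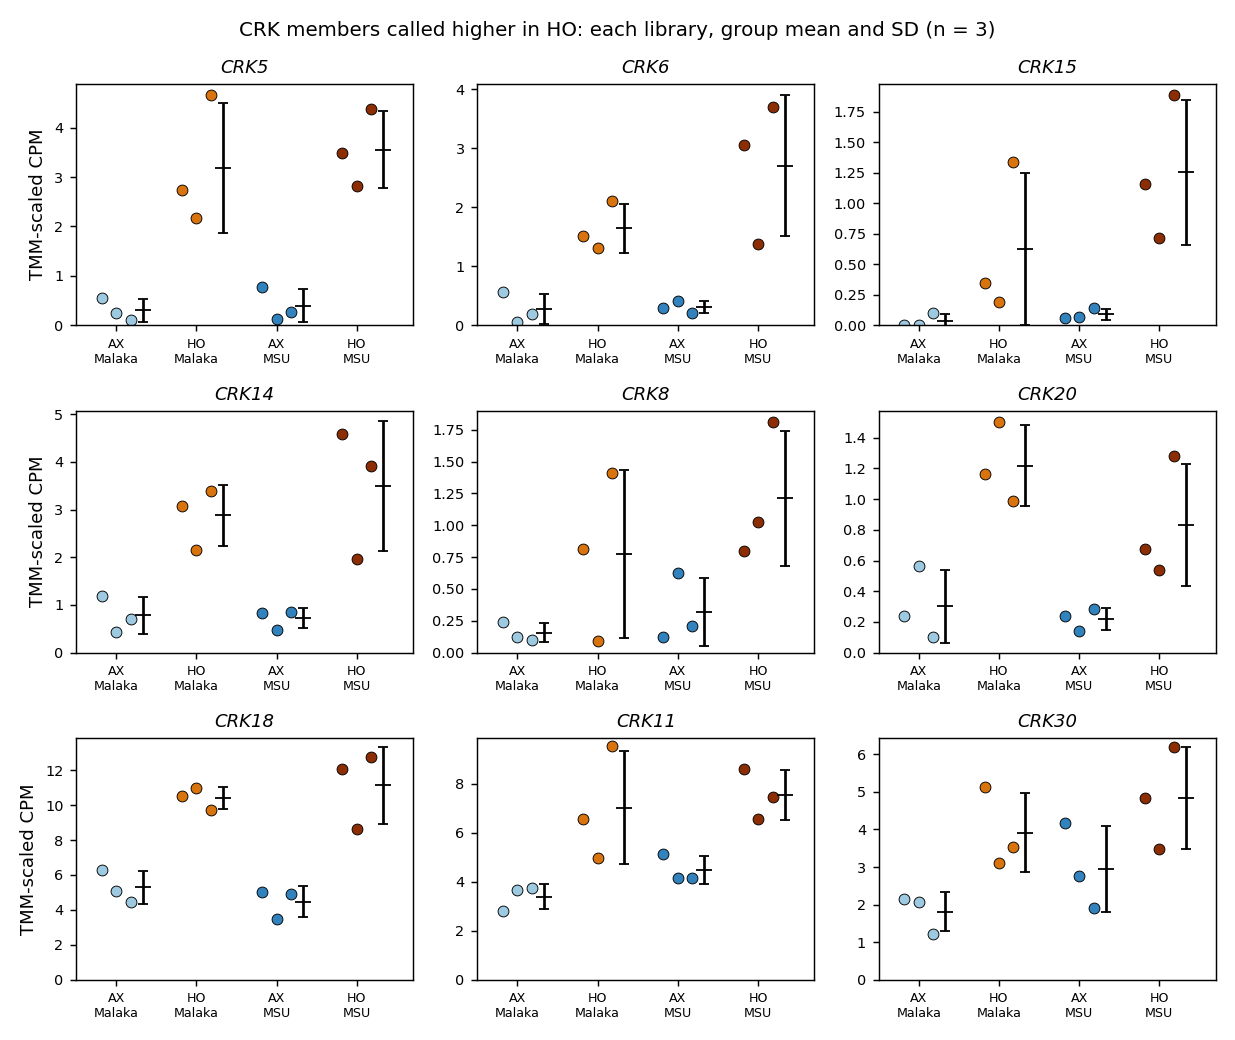
TMM-scaled CPM on linear axes from 0 for the 9 members called higher in HO plants over both soils or within a soil, with a point for each library and the group mean and SD (n = 3) in black. HO libraries (orange and brown) lie above AX libraries (blue) for all 9, except HO-Malaka replicate 2 of CRK8 at 0.0940 CPM and partial overlaps of CRK20 and CRK11 between soils and of CRK30 both within MSU soil and between soils.

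A few libraries set the extremes. HO-Malaka replicate 2, which had the lowest TMM factor (0.788), was the lowest HO library for 4 of the 7 DEGs, and HO-MSU replicate 2 was the lowest for the other 3. Without HO-Malaka replicate 2 all 7 remained DEGs, and CRK7, CRK31 and CRK36 were added. Summed over the 7 genes, AX libraries held between 5.32 and 9.11 CPM and HO libraries between 17.0 and 29.7 CPM. The 7 genes were called in these same libraries, so this separation follows from their choice. CRK18 alone had a mean of 10.8 CPM of the mean sum of 22.5 in HO, and 4.87 of 6.83 in AX libraries. Summed over all 39 members, AX libraries held between 161.9 and 194.8 CPM and HO libraries between 207.1 and 261.1 CPM, without overlap.

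The 8 members with an FDR under 0.05 and a rise below the fold threshold included the most abundant one. CRK10, which had the highest counts of the family, was at 29.2 ± 4.10 CPM in AX and 43.3 ± 2.97 CPM in HO libraries (SD, n = 6), a 1.49-fold rise in which the 6 HO libraries (39.1 to 48.1) lay above the 6 AX libraries (23.0 to 32.8). Its log2FC was 0.57 ± 0.08 with an FDR of 4.37e-06. CRK13, whose overexpression is known to give salicylic acid-dependent resistance to bacteria, had a log2FC of 0.92 ± 0.21 (FDR 0.0032). CRK11 had 0.89 ± 0.15 (FDR 0.000127), CRK30 0.86 ± 0.20 (FDR 0.0056) and CRK29 0.75 ± 0.14 (FDR 0.000404). CRK19, which also gives cell death when it is induced, had 0.72 ± 0.11 (FDR 5.44e-05), and CRK41 had 0.55 ± 0.10 (FDR 0.000587). CRK2, which phosphorylates the NADPH oxidase RBOHD, had 0.36 ± 0.11 (FDR 0.025), and this FDR rose above 0.05 when AX-Malaka replicate 2, HO-Malaka replicate 3, AX-MSU replicate 2 or 3 or HO-MSU replicate 1 was left out, and to 0.28 with scaling by total counts only. Libraries did not overlap for CRK10, CRK19, CRK29 and CRK41. Together with CRK5, CRK6, CRK14, CRK15 and CRK18 these made 9 members in which every HO library was above every AX library (33.3% of those tested, compared with 2.51% of all genes). CRK5, CRK6 and CRK15 were tested only with the help of HO libraries, and among members that reached the cutoff in 3 AX libraries there were 6 of 20 (30%, compared with 1.97% of such genes).

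The other 12 tested members did not pass the FDR. CRK4, which gives cell death when induced and associates with FLS2, had the largest of their values (log2FC 0.78 ± 0.44, FDR 0.316), with HO libraries between 0.188 and 2.04 CPM and AX libraries between 0.160 and 0.954 CPM. CRK34 (0.38 ± 0.25), CRK28 (0.36 ± 0.18) and CRK12 (0.32 ± 0.24) were followed by CRK16 (0.22 ± 0.40), CRK3 (0.19 ± 0.08), CRK21 (0.16 ± 0.10), CRK22 (0.14 ± 0.10), CRK40 (0.11 ± 0.08), CRK17 (0.04 ± 0.12) and CRK42 (0.03 ± 0.09). CRK39 had the one negative value (-0.08 ± 0.29, FDR 0.907), with 1.40 ± 0.397 CPM in AX and 1.34 ± 0.740 CPM in HO libraries. CRK28 is known to associate with FLS2 and its co-receptor BAK1. Its FDR was 0.236, and its 6 HO libraries (2.73 to 3.54 CPM) overlapped its 6 AX libraries (1.62 to 3.52 CPM).

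Scaled to exon length, the members spanned a wide range, and the order in AX plants was not the order in HO plants. The levels are given as CPM per kb of exon, with SD over 6 libraries, and depend on the RefSeq gene models. In AX plants CRK10 (11.5 ± 1.61) and CRK40 (8.81 ± 0.891) were highest. CRK2 (5.18 ± 0.793), CRK42 (5.08 ± 0.591), CRK3 (4.97 ± 0.964), CRK21 (4.80 ± 0.653), CRK22 (4.15 ± 0.574) and CRK41 (4.10 ± 0.629) followed, and neighbours among these 6 did not differ beyond their SD. CRK17 (3.03 ± 0.547), CRK18 (2.21 ± 0.421), CRK19 (2.05 ± 0.290), CRK11 (1.56 ± 0.303) and CRK29 (1.47 ± 0.283) came next. The others were below 1, and CRK8 (0.0585 ± 0.0487) and CRK15 (0.0328 ± 0.0296) were last of the tested members. The DEGs were mostly at this low end in AX plants. The filter contributes to this order, because members of low AX level were tested only where their HO libraries were high enough. CRK5 moved from place 23 of the 39 members (0.149 ± 0.112) to place 17 (1.43 ± 0.419), CRK14 from 20 to 15, CRK6 from 25 to 19 and CRK15 from 33 to 23. CRK18 moved from 10 to 8, CRK20 stayed at 24 and CRK8 moved from 27 to 29. The highest DEGs remained far below CRK10 in HO plants (17.0 ± 1.17).

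**Figure D2:**
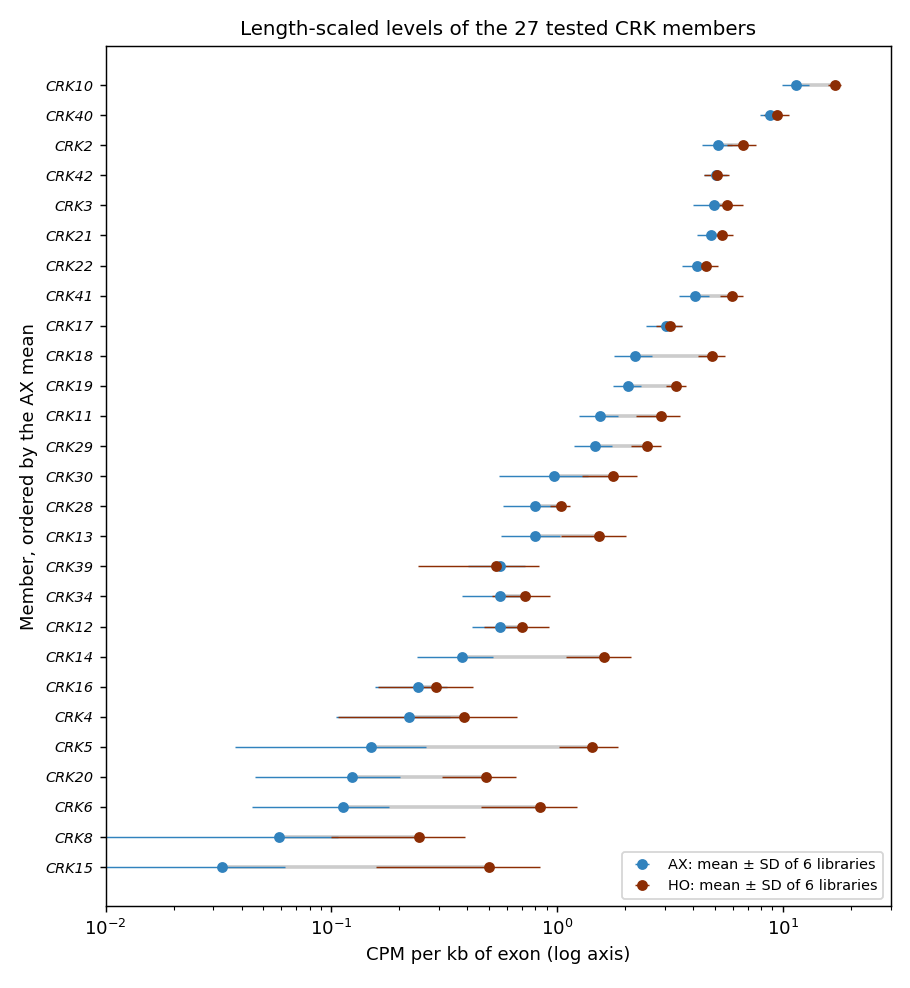
CPM per kb of exon on a log axis for the 27 tested members, ordered by the AX mean, with mean ± SD of 6 AX libraries (blue) and 6 HO libraries (brown); bars that reach 0 are cut at the axis. The wide gaps belong to CRK14, CRK5, CRK20, CRK6, CRK8 and CRK15 at the low end, whereas CRK10 and CRK40 stay highest in both conditions. Of these, CRK5, CRK20, CRK6, CRK8 and CRK15 passed the filter only with the help of HO libraries, which favours wide gaps at the low end.

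Within a soil, the same comparison rests on 3 libraries against 3. With Malaka soil, 6 members were DEGs higher in HO plants (CRK5, CRK6, CRK14, CRK15, CRK11 and CRK30), or 22.2% of those tested against 1.25% of all genes. With MSU soil 5 members were (CRK5, CRK6, CRK14, CRK15 and CRK18), or 18.5% against 1.42%. No member was a DEG lower in HO in either soil with edgeR or DESeq2 or at an unadjusted p under 0.05, where 0.353% of all genes were with Malaka and 0.353% with MSU soil. CRK5, CRK6, CRK14 and CRK15 were called in both soils.

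CRK11 and CRK30 reached the fold threshold with Malaka soil alone. CRK11 was at 2.79, 3.65 and 3.74 CPM in AX-Malaka and 6.57, 4.98 and 9.53 CPM in HO-Malaka libraries (log2FC 1.06 ± 0.22, FDR 0.0025), and at 5.13, 4.14 and 4.16 CPM in AX-MSU and 8.62, 6.56 and 7.47 CPM in HO-MSU libraries (log2FC 0.74 ± 0.20, FDR 0.020). CRK11 therefore did not overlap within either soil. CRK30 was at 2.16, 2.08 and 1.21 CPM in AX-Malaka and 5.12, 3.10 and 3.53 CPM in HO-Malaka libraries (log2FC 1.10 ± 0.30, FDR 0.033). In AX-MSU libraries it was at 4.17, 2.76 and 1.90 CPM and in HO-MSU libraries at 4.83, 3.48 and 6.18 CPM (log2FC 0.67 ± 0.27, FDR 0.152), with an overlap through AX-MSU replicate 1. The call of CRK30 with Malaka soil was lost without any of 5 of the 6 Malaka libraries, HO-Malaka replicate 2 being the exception, and with scaling by total counts only (FDR 0.0716). That of CRK11 was lost without AX-Malaka replicate 1 or HO-Malaka replicate 3, and that of CRK15 without AX-Malaka replicate 1 or 2 or HO-Malaka replicate 3. The log2FC of CRK15 with Malaka soil was 3.06 without HO-Malaka replicate 3, 3.59 without AX-Malaka replicate 2 and 6.30 without AX-Malaka replicate 3. CRK29 came close in Malaka soil (log2FC 0.98 ± 0.19, FDR 0.0015) and had 0.53 ± 0.18 (FDR 0.0805) in MSU soil.

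The difference between soils was tested directly as an interaction of soil and treatment. No member passed (lowest FDR 0.669, for CRK42) with edgeR or with DESeq2, which gave no adjusted p for 11 of them, and none had an unadjusted p under 0.05, while 0.279% of all genes passed. The interaction of CRK30 was -0.43 and that of CRK11 -0.32 on the log2 scale, so the calls in a single soil are not shown to differ between soils. The largest interaction was that of CRK4 (-1.23, FDR 0.772), which had a log2FC of 1.49 ± 0.66 with Malaka and 0.26 ± 0.57 with MSU soil. Across the 27 members, the log2FC with Malaka soil went with that of MSU soil (Pearson's r = 0.938, Spearman's rho = 0.802), which is a description across genes that are not independent replicates and that share libraries. The Malaka value was the larger in 19 of the 27 and the MSU value in 8, while the MSU value was the larger in 48.7% of all tested genes. With Malaka soil 24 members had a positive log2FC and with MSU soil 24, compared with 50.9% and 50.7% of all tested genes. In 22 members it was positive in both soils.

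**Figure D3:**
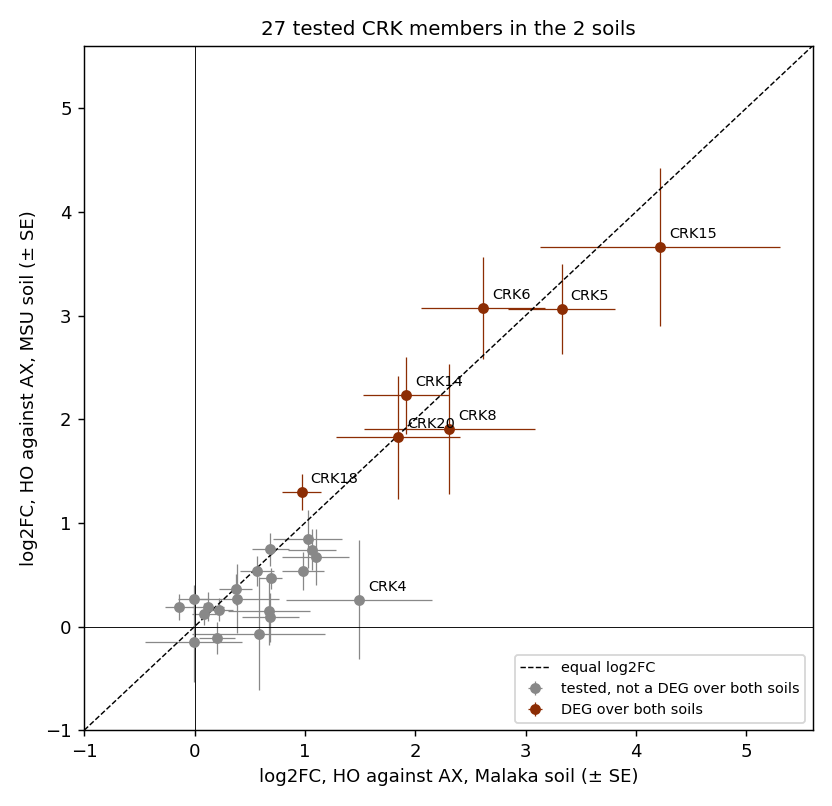
log2FC of HO against AX plants with Malaka soil (horizontal) and MSU soil (vertical) for the 27 tested members, with SE bars, the 7 DEGs over both soils in brown and a dashed line of equal values. The DEGs lie along the line from CRK18 (0.97 and 1.30) to CRK15 (4.22 and 3.66), and CRK4 (1.49 and 0.26) is the point farthest from it.

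The 2 soils were also compared at the same treatment. In AX plants 0.131% of all genes and in HO plants 0.0398% were DEGs between MSU and Malaka soil, and no member was in either, with edgeR or DESeq2 (which gave no adjusted p for 9 and 15 members). At an unadjusted p under 0.05 there were 5 members in AX and 2 in HO plants with edgeR (18.5% and 7.41% of the members, compared with 9.4% and 9.15% of all genes). CRK3 alone passed the FDR in AX plants (3.7% of the members, compared with 0.648% of all genes), with a log2FC of 0.50 (FDR 0.034) below the fold threshold, and had 0.44 (FDR 0.0877) in HO plants. Its 6 MSU libraries (16.3 to 19.0 CPM) all lay above its 6 Malaka libraries (10.6 to 15.04 CPM).

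Neighbouring genes of a cluster often moved by different amounts. Among 27 pairs of adjacent members, both genes were tested in 16. Their log2FC differed by a median of 0.58 and by at least 1 in 7 pairs. Of the 16 pairs, both genes were DEGs in 2 (CRK5 with CRK6, and CRK14 with CRK15), 1 gene was in 7, and neither was in 7. Among the pairs that differed by at least 1, only CRK13 with CRK14 and CRK17 with CRK18 had both genes at the filter cutoff in 3 AX libraries. The others included CRK8, CRK15 or CRK20, which had no AX library at the cutoff and were tested only through high HO libraries. This favours large differences. CRK8 and CRK10 were paired although CRK9, which is not a member, lies between them. CRK15 (3.83 ± 0.61) lies 198 bases from CRK16 (0.22 ± 0.40) on the same strand. CRK20 (1.84 ± 0.40) lies 157 bases from CRK21 (0.16 ± 0.10) on the opposite strand, and CRK18 (1.14 ± 0.13) lies 389 bases from CRK17 (0.04 ± 0.12) on the same strand. These 3 differences were 3.6, 1.68 and 1.09 on the log2 scale and each exceeded the sum of the 2 SEs. No test was run on them.

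The order of neighbours per exon length also turned in places. In the AX libraries CRK17 was above CRK18 in 6 of 6, and in the HO libraries CRK18 was above CRK17 in 6 of 6. CRK13 was above CRK14 in 6 of 6 AX libraries and in 2 of 6 HO libraries, and CRK15 was above CRK16 in 0 of 6 AX and 4 of 6 HO libraries. CRK16 and CRK17 share 776 exonic bases on the same strand. The orders that involve CRK16 or CRK17 therefore depend on the gene models and on how reads there were counted. The 16 tested members of the cluster had a median log2FC of 0.91, and the 11 tested members elsewhere had a median of 0.36 and a highest value of 0.86 (CRK30). Of the 7 members that needed HO libraries to be tested, 6 are in the cluster, and over members that reached the cutoff in 3 AX libraries the medians were 0.65 (10 in the cluster) and 0.36 (10 elsewhere). The DEGs were on both strands, with 3 of the 8 plus-strand and 4 of the 11 minus-strand genes of the cluster. All 7 DEGs had at least 1 W-box core in the 250 bases before their start, and 6 had at least 2, compared with 10 and 5 of the 20 other tested members. Of the DEGs, CRK5, CRK6, CRK8, CRK15 and CRK20 were tested only with the help of HO libraries. The DEGs and the other members were thus selected in different ways, and a link of cores to the rise was not tested. The window of CRK8 lies before a RefSeq model whose first C-X8-C-X2-C motif begins at codon 682. Among the members higher by the FDR alone, CRK2, CRK13, CRK19 and CRK30 had no core.

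**Figure D4:**
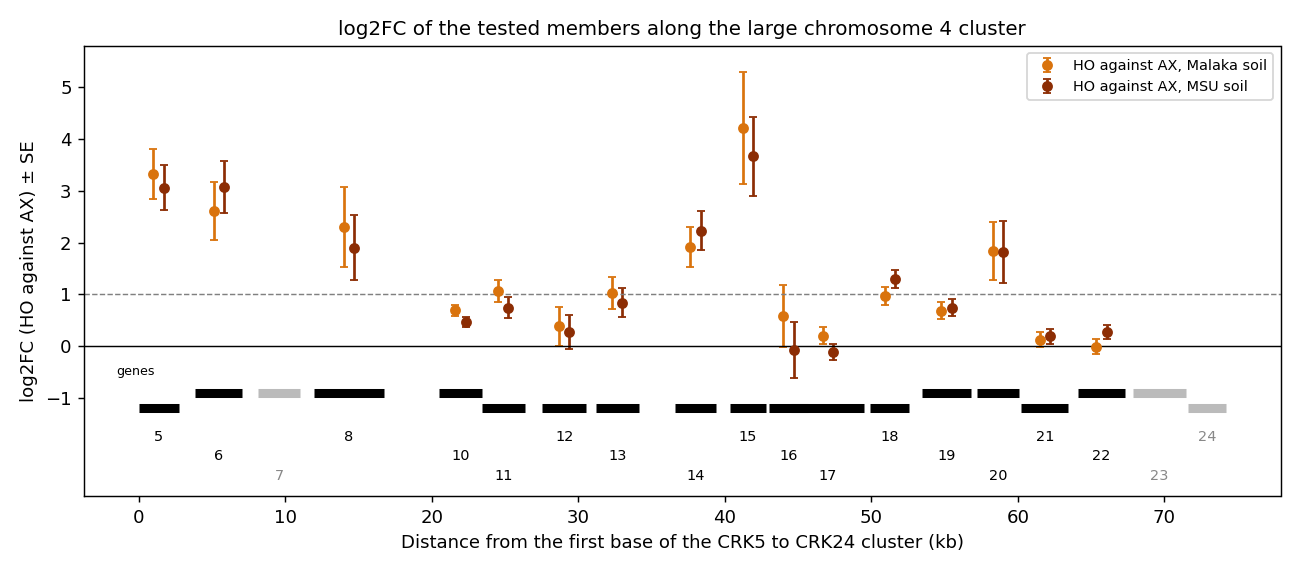
log2FC ± SE of HO against AX plants for Malaka (orange) and MSU soil (brown) along the cluster from CRK5 to CRK24, against distance in kb, with genes as bars by strand (plus strand above, minus strand below), untested members in grey and the fold threshold dashed. High values at CRK5, CRK6, CRK8, CRK14, CRK15 and CRK20 alternate with values near 0 at CRK16, CRK17, CRK21 and CRK22. Of these, CRK5, CRK6, CRK8, CRK15, CRK16 and CRK20 passed the filter only with the help of HO libraries.

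The 12 members under the filter had at most 20 counts in a library. All 12 had more counts in HO than in AX libraries, and their sums were 298 and 61 counts. The HO libraries together were 1.12 times as deep as the AX libraries. The share of all genes under the filter with more counts in HO is not given here, so this number of members is not set against it. Scaled to depth this was a ratio of 4.35 with an exact binomial interval from 3.29 to 5.83, which covers counting error only. CRK31 had 57 counts in HO and 7 in AX libraries, CRK36, known as a partner of FLS2 and BIK1, 54 and 11, CRK7, whose first motif differs from that of CRK6 at 2 positions, 48 and 7, and CRK24 39 and 6. With no filter on low counts these 4 were DEGs higher in HO, with log2FC of 2.85 (FDR 0.000542), 2.14 (FDR 0.0085), 2.59 (FDR 0.0056) and 2.56 (FDR 0.018). CRK26 had 30 and 15 counts, CRK27 18 and 9, CRK23 20 and 3, CRK38 12 and 1, and CRK25 9 and 2, and none of them was called without the filter. The ratio was 5.94 for CRK23 (1.76 to 31.2), 10.7 for CRK38 (1.58 to 457) and 4.01 for CRK25 (0.830 to 38.1), with the intervals again covering counting error only. Without the HO library with most of their counts, HO-Malaka replicate 3 for CRK38 and HO-Malaka replicate 2 for CRK25, the ratios were 5.24 and 2.51. CRK32 had 6 counts in HO and none in AX libraries. Of these, 3 were in HO-Malaka replicate 3. CRK37 had 4 counts in HO and none in AX libraries, with 3 in HO-MSU replicate 3. Without those libraries both were at or under the floor of 3 counts in either condition, so no fold is given. CRK33 had 1 count in all libraries.

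**Figure D5:**
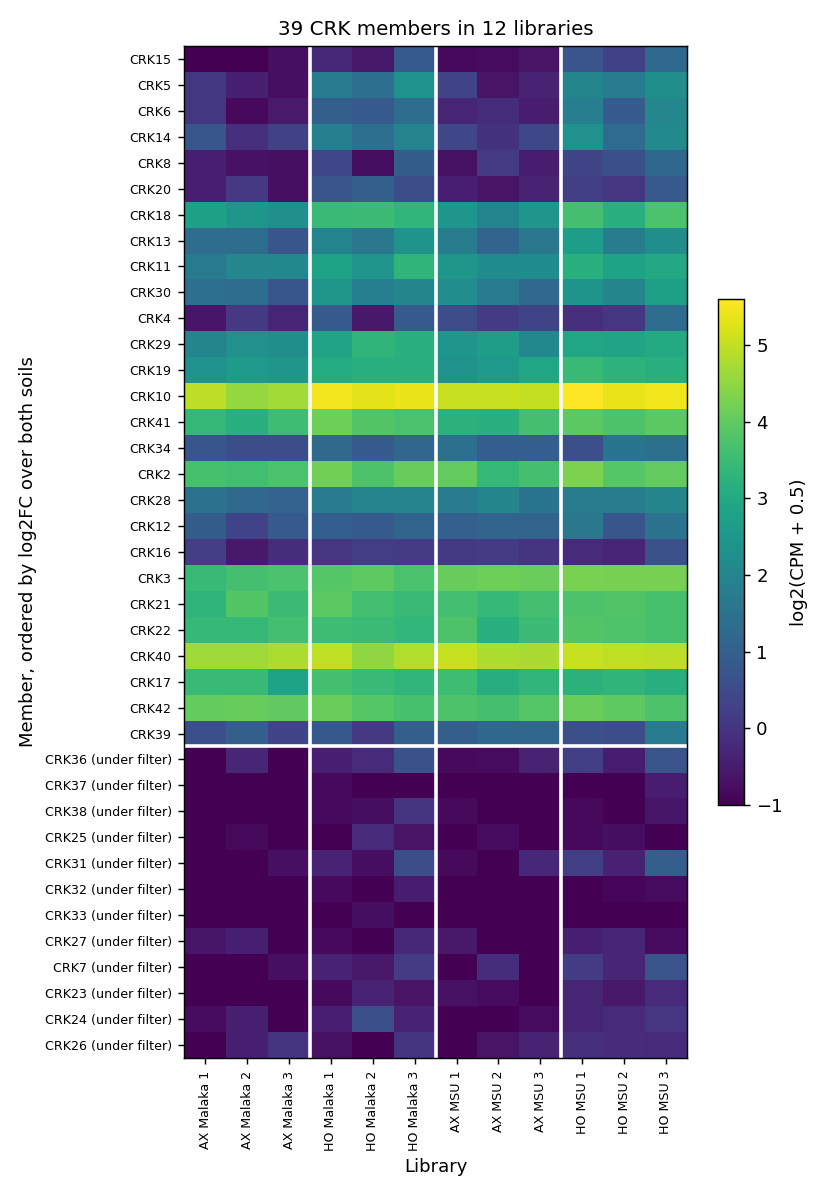
log2(CPM + 0.5) of the 39 members (rows, ordered by log2FC over both soils, with members under the filter at the foot) in the 12 libraries (columns, in 4 groups of 3). CRK10 and CRK40 are bright in all libraries, the upper rows are brighter in HO than in AX groups, and HO-Malaka replicate 2 is darker than the other HO libraries in the rows of CRK8 and CRK4.

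Genes with related functions were read from lists made for this family with earlier results of these data known. Of 14 other genes with DUF26 domains or CRK names, 9 were tested, 2 passed the FDR and both were higher in HO plants. Among all tested genes, 5.01% were higher in HO by the FDR and 1.56% were DEGs higher in HO. AT4G11890 (CRK45), a kinase known to act with CRK36 in abscisic acid signalling and without the C-X8-C-X2-C motif in its RefSeq protein, had 155 counts in HO and 12 in AX libraries (log2FC 3.41 ± 0.48, FDR 1.12e-05). CRK9 (AT4G23170), which lies between CRK8 and CRK10 and is not among the 39, had a log2FC of 0.86 ± 0.18 (FDR 0.0012). The plasmodesmata-located proteins PDLP1 to PDLP8, which carry the same domain without a kinase, were tested except PDLP4 and PDLP8, and none passed. PDLP7 had the lowest value (-1.01 ± 0.40, FDR 0.114).

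Of 15 genes of PTI signalling, all were tested, and 8 were higher in HO plants by the FDR (FLS2, EFR, CERK1, BAK1, BKK1, BIK1, PBL1 and RBOHD) with none lower and no DEG. FLS2, with which CRK4, CRK6 and CRK36 associate, had a log2FC of 0.76 ± 0.11 (FDR 2.52e-05). The kinase BIK1 had 0.93 ± 0.15 (FDR 5.01e-05), and RBOHD, the oxidase that CRK2 phosphorylates, had 0.51 ± 0.07 (FDR 2.10e-05). The MAP kinases MPK3, MPK4 and MPK6 and the calcium-dependent kinases CPK5, CPK6 and CPK11 did not pass. RBOHF did not pass either (log2FC -0.13 ± 0.115, FDR 0.579). Of 12 WRKY factors, 11 were tested, 6 were higher and none lower by the FDR, and WRKY60 (2.05 ± 0.22), WRKY53 (1.57 ± 0.18) and WRKY18 (1.37 ± 0.23) were DEGs. Beside the counts of both lists, 5.01% of all tested genes were higher and 5.16% lower in HO by the FDR. DEGs higher in HO were 1.56% of all tested genes. FRK1, a receptor-like kinase gene used as a marker of PTI, had 408 counts in HO and 3 in AX libraries. This is a ratio of 121 scaled to depth, with an exact binomial interval from 41.2 to 590 that covers counting error only.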

How the data were processed

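RNA was extracted from whole rosettes and sequenced as stranded single-end reads. Per the study's methods and the submitters' processing notes, the authors trimmed reads with Trimmomatic, mapped them to TAIR10 with STAR and counted them with Rsubread. The deposited values are raw counts per gene and library. The annotation and the handling of multi-mapping reads are not given in the sources used here.

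All genes were tested with the quasi-likelihood functions of edgeR 4.0.16 under R 4.3.3 (TMM, filterByExpr with a minimum count of 10 and total of 15). HO was compared with AX with soil as a term, and contrasts of the 4 groups gave the other comparisons. FDRs are Benjamini-Hochberg values over 17588 genes. DEGs passed both an FDR of 0.05 and a |log2FC| of 1, and interactions were judged by the FDR only. The code was tested on simulated data in which only genes of higher counts were changed, so the simulation did not cover calls at low counts. Alternatives included DESeq2 1.42.0, other scalings and filters, the fold threshold inside the test, a replicate block and each library left out.

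Gene coordinates, sequences and motifs came from RefSeq. The 39 members, the lists and the named genes were chosen with earlier results of these data known. All members were named, and those called in a comparison were given per library. A floor of 3 counts, over a group for ratios, stood for a gene without counts, and exact (Clopper-Pearson) 95% intervals cover counting error only. Plots were drawn with matplotlib 3.10.9.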

Additional observations from a re-analysis of the deposited data

How the results depend on the processing

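The 7 DEGs over both soils kept their call under all 21 alternatives run on them except the fold threshold inside the test (glmTreat), where 4 were left (CRK5, CRK6, CRK14 and CRK15). In that test 1 member (CRK5) was called with Malaka soil and 3 with MSU soil. Without a filter on low counts, and with the iDEP filter of 0.5 CPM in 1 library, 11 members were DEGs over both soils. The median log2FC of the tested members was then 0.85 and 0.74. The members added to the DEGs were CRK7, CRK24, CRK31 and CRK36, whose counts were mostly in HO libraries. Leaving out each of the 12 libraries in turn gave between 7 and 10 DEGs over both soils, between 4 and 9 with Malaka soil, between 5 and 7 with MSU soil, and medians between 0.57 and 0.76. The number of members tested was then between 26 and 30, and the cause of the added calls was not tested. The share of all genes called under each changed setting is not given here, so these counts of members are not set against it. Counts of members lower in HO, with an interaction, or differing between soils stayed at 0 throughout. Without composition scaling (total counts only) the median of all genes moved to -0.10, and that of the members to 0.46, and CRK2 over both soils and CRK30 with Malaka soil lost their calls. CRK8 became a DEG within either soil without a filter on low counts (FDR 0.0383 with Malaka, 0.027 with MSU), and within MSU soil when its libraries were fitted alone (FDR 0.0226).

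The replicate number as a block left 7 DEGs for the soils together, 6 for Malaka and 5 for MSU soil, and changed no call. Libraries with the same number correlated above 0.1 in 1 of 18 pairs (r from -0.0285 to 0.186). Libraries with different numbers had r from -0.159 to 0.085. The numbers thus show at most a weak pairing, which these values cannot exclude.

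Depth limits the low members. CRK15 rests on 5 counts in the AX libraries, CRK8 on 20, and calls within a soil on 3 libraries a group.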
